A study of Mus musculus with 9 samples.

Results

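The genes described here are 46 regulators and components of the cell cycle and of DNA replication, chosen by name for their known roles. The choice was made with earlier results of these data known. The genes were followed across the RNA-seq libraries of bone-marrow-derived macrophages (BMDMs). They were found by gene symbol in a table of 24061 symbols, with the counts of all transcript rows of a symbol summed. All 46 were present, on 61 rows. The cells were primary macrophages grown from the bone marrow of female C57BL/6J mice of 8 to 10 weeks, differentiated for 7 days in L-cell conditioned medium, a source of the macrophage growth factor CSF-1, and then deprived of serum for 1 day. All 9 libraries therefore came from cells held in a low amount of that growth factor and without serum. The Veh group (3 libraries, labelled DMSO) received the solvent alone. The LPS group (3 libraries, labelled DMSO+LPS) received DMSO and then LPS, a bacterial TLR4 agonist, at 10 ng/mL for 2 hr. The T0+LPS group (3 libraries) received 500 nM of T0901317 (T0), a synthetic agonist of the liver X receptors (LXRs), 3 hr before the same LPS stimulus. The harvest time of the Veh cultures was not given in the sources used here, and no group received T0 alone. Replicates were individually differentiated cultures by the methods of the study, and whether cultures shared a donor mouse was not given.

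The cell cycle is driven by cyclins, which switch on cyclin-dependent kinases (CDKs). D-type cyclins with CDK4 or CDK6 phosphorylate the retinoblastoma protein RB and free the E2F transcription factors, which switch on the genes of DNA replication. Replication origins are licensed by CDC6, CDT1 and the MCM helicase, and CDK inhibitors such as the product of Cdkn1a hold the kinases back. Genes of G2 and mitosis are switched on later by B-MYB, encoded by Mybl2, and by FOXM1, through a short promoter element, the CHR, often paired with CCAAT boxes. Macrophages from bone marrow divide in culture in response to CSF-1, and LPS is known to stop that division.

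Promoter sequences of 6 members are shown so that their E2F, CHR and CCAAT letters can be read beside the direction in which each gene moved. Sequences were taken from RefSeq on GRCm38.p6, the mm10 assembly, and 37 of the 46 members had a window of 250 bases before to 50 bases after a start site. The members without a window were Ccnd1, Ccnd2, Rb1, Myc, Foxm1, Ccne2, Mcm4, Ccna2 and Aurkb. Each window was searched on both strands for E2F matches (TTTCCCGC, TTTGGCGC or TTTCGCGC), CHR matches (TTTGAA or TTTAAA), the CCAAT box (CCAAT) and the E-box (CACGTG). The windows below are the 250 bases before the start, written 5′ to 3′ along the gene, with E2F, CHR and CCAAT matches on either strand in capitals. The first 3 belong to mitotic genes of which Mki67 and Top2a rose after LPS and Cdk1 did not pass the test. E2f8 and E2f7 are the atypical E2F repressors and moved in opposite directions, and Mcm6 is a helicase subunit that fell.
Mki67: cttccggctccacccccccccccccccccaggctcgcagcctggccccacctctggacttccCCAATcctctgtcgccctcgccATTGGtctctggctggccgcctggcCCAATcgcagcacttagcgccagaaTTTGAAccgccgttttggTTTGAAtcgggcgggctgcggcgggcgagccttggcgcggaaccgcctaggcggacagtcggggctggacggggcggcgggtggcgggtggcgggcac
Top2a: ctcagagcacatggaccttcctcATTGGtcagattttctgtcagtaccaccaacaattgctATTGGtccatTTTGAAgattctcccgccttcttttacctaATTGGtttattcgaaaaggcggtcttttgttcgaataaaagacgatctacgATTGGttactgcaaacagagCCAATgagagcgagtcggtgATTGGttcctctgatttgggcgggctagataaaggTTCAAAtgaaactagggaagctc
Cdk1: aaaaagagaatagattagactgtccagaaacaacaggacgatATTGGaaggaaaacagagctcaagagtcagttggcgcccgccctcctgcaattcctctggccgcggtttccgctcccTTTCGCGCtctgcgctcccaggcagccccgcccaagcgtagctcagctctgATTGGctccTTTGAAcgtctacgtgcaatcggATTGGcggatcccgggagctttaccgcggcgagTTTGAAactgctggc
E2f8: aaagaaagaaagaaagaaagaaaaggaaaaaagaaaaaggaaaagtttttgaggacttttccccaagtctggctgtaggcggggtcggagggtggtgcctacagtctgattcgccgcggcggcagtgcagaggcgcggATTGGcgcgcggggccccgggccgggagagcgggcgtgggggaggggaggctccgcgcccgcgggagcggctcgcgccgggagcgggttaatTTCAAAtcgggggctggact
E2f7: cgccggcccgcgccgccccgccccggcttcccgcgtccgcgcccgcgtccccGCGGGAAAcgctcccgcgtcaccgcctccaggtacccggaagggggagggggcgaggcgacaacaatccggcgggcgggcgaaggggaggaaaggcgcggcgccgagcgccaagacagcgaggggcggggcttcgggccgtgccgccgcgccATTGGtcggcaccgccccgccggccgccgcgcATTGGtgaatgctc
Mcm6: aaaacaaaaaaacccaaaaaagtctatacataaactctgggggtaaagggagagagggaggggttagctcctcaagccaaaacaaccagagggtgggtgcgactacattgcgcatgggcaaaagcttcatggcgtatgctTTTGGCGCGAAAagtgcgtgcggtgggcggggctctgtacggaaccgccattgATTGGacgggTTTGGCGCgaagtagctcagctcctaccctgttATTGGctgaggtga

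The Mki67 window (chr7:135716380-135716629, minus strand) held CHR matches at -116 to -111 and at -98 to -93 from the start site, and 3 CCAAT boxes. The Top2a window (chr11:99024190-99024439, minus strand) held 2 CHR matches, at -179 to -174 and at -23 to -18, and 6 CCAAT boxes. The Cdk1 window (chr10:69352913-69353162, minus strand) held 2 CHR matches, 3 CCAAT boxes and in addition an E2F match at -131 to -124. The E2f8 window (chr7:48881597-48881846, minus strand) held a CHR match at -20 to -15, a CCAAT box and no E2F match of these letters. Its start site lay 555 bases upstream of the counted E2f8 row. The E2f7 window (chr10:110745189-110745438, plus strand) held an E2F match at -198 to -191, 2 CCAAT boxes and no CHR match. The Mcm6 window (chr1:128359706-128359955, minus strand) held 3 E2F matches, of which those at -110 to -103 and at -106 to -99 overlapped.

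An E2F match stood in the windows of 10 of 37 members (27%) against 2.12% of 27025 symbols with a window. The 10 were E2f2, E2f7, Cdk2, Cdc6, Cdt1, Mcm3, Mcm5, Mcm6, Mcm7 and Cdk1. The E2F matches of E2f2 (39 to 46) and Cdt1 (32 to 39) lay within the 50 bases after the start. CHR matches stood in 18 members (48.6%, against 30.6% of all symbols), CCAAT boxes in 27 (73%, against 41.1%) and E-boxes in 4 (10.8%, against 8.09%). Of the 5 members with a window that rose after LPS, 0 held an E2F match, against 5 of 15 that fell and 3 of 12 that were not called. CHR matches stood in 3 of the 5 that rose, 6 of the 15 that fell and 8 of the 12 not called. A symbol with several windows was counted if any of them held a match. Some windows began inside the gene. Those of E2f1 and Cdc6 had start sites 466 and 262 bases downstream of the 5′ end of the counted rows. The CHR match of E2f2 came only from a start site 8388 bases downstream, and the CCAAT box of Ccnd3 from one 88416 bases downstream. A match is a string of letters and was not shown to be a bound site.

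Each library held between 13299044 and 16467983 counted reads. Levels are given as CPM, the counts relative to library size after scaling with TMM factors, which correct for library composition. These factors ran from 1.136 upward in the Veh libraries and did not exceed 0.948 in the others. The macrophage label was checked first. Macrophage markers summed to between 24623 and 33228 CPM per library, led by Lyz2, Csf1r and Cd14, while Itgam was listed at 0. Stem and progenitor, erythroid, fibroblast, B cell and T and NK cell markers each summed to at most 3.42 CPM in any library, with Kit, Ly6a and Hoxa9 at 0. As with Itgam, a level of 0 does not show that a transcript was absent. Bases that are counted for each marker were not examined, so the low sums do not show that such cells were absent. Dendritic cell markers, mostly Itgax, which macrophages also express, summed to between 470 and 504 CPM in Veh and between 617 and 715 CPM in LPS, with Clec9a and Siglech at 0. Neutrophil and granulocyte precursor markers summed to between 78.3 and 83.9 CPM in Veh and between 87.2 and 100.1 CPM in LPS, and monocyte markers, nearly all Ccr2, to between 66.5 and 93.7 CPM in Veh and between 39.9 and 51.0 CPM in LPS. The part of these cells in the results on the members was not tested. All 6 LPS-induced check genes rose after LPS, and 6 of 7 LXR targets rose with T0.

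Counts in this table come only from bases that no other row shares, so most members with several transcripts were measured on few bases. In all, 35 members had 1 row and 11 had several, and 39 members passed the filter on low counts in every comparison. The 7 that did not pass were Myc, Ccne2, Cdk2, Cdc6, Tyms, Aurka and Bub1. Myc, the growth-promoting transcription factor, had 4 rows with 0 unshared bases and 0 reads over the 9 libraries, and Aurka and Bub1, which act in mitosis, had 0 reads on 78 and 3 unshared bases. Ccne2 had 2 reads, Tyms 1 read, Cdc6 13 reads and Cdk2 61 reads in all. A count of 3 reads corresponds to between 0.182 and 0.226 CPM depending on the library. No statement on whether these genes were expressed follows from such counts.

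Levels per length were ordered over the 37 members with at least 500 unshared bases. Pcna, which encodes the sliding clamp of the replication fork, was the most abundant of them, with 284 CPM per 1000 unshared bases in Veh, 270 in LPS and 260 in T0+LPS. Cdk4 ranked 2nd in all 3 groups, with 74.7, 64.3 and 64.9 CPM per 1000 unshared bases. The order leaves out 9 members, among them Cdkn1a, which on its 206 unshared bases had 6.79 CPM per 1000 in Veh, 82.6 in LPS and 38.8 in T0+LPS. Lower ranks moved with treatment. Mki67, which encodes the proliferation antigen Ki-67, moved from rank 21 in Veh to rank 4 in LPS, Cdk6 from 13 to 3, E2f8 from 31 to 7 and Ccnd2 from 34 to 16. Cdt1 moved from rank 5 to 13 and Ccnd1 from 7 to 14. Mki67 alone made up 3.78% of the summed CPM of all members in Veh, 20.9% in LPS and 20.0% in T0+LPS. Without Mki67 the summed level of the members was 1283 ± 38.4 CPM (SD, n = 3) in Veh and 1299 ± 22.4 CPM in LPS, a difference smaller than the spread between libraries.

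Comparing LPS with Veh asks which of these genes respond within 2 hr of TLR4 stimulation. After LPS, 6 members rose and 17 fell, and 16 were not called. Those that rose were Cdkn1a, Ccnd2, E2f8, Mki67, Cdk6 and Top2a. Those that fell included E2f2, E2f7, Cdt1, Ccne1, Aurkb and Mybl2, each by over 1.5-fold. Over all 9559 genes tested, 64.1% were called at an adjusted p under 0.05, 32.9% higher and 31.2% lower, so that 23 of 39 members called (59.0%) was close to that background. The share of members called lower was 43.6%, and the share called higher was 15.4%. The median log2 fold change of the members was -0.20, against -0.0019 for all genes. At over 1.5-fold, 5 members were higher and 6 lower, against 14.4% and 15.6% of all genes. In 25 of 39 members the LPS and Veh libraries did not overlap, against 67.4% of all genes. Scaling by library totals alone shifted the median log2 fold change of all genes to -0.28. Under that scaling 5 members were called higher and 28 lower (84.8% of member calls lower, against 73.9% with TMM). Among the calls over all genes, 76.2% were lower under that scaling and 48.6% with TMM. In bulk RNA, fewer cells expressing a gene and less RNA per cell cannot be told apart.

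**Figure D1:**
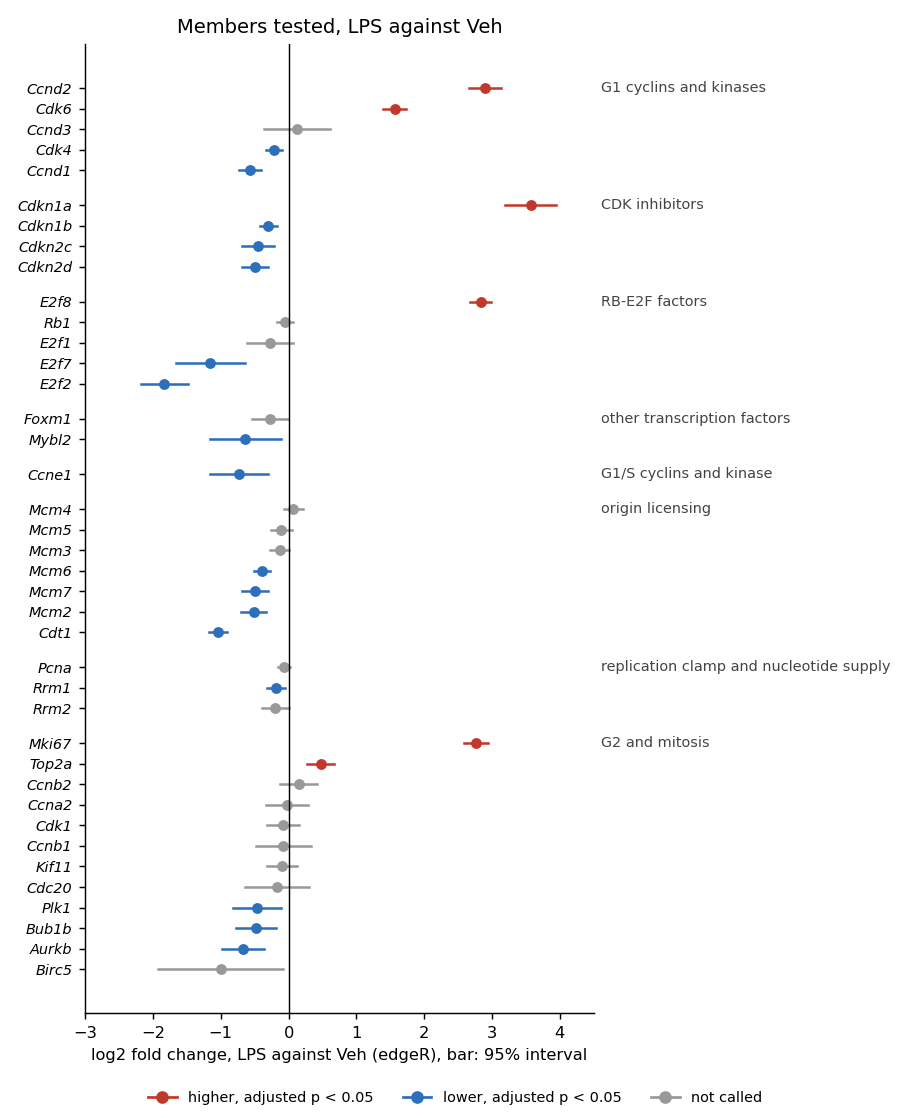
Log2 fold change of LPS against Veh (x axis) for the 39 tested members, grouped by role, with points for the edgeR estimate and bars for its 95% interval. Red points are the 6 members called higher, blue the 17 called lower and gray the 16 not called. Cdkn1a, Ccnd2, E2f8 and Mki67 stand apart at log2 values between 2.76 and 3.57, while most others lie between -1 and 0.

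Among the G1 cyclins and kinases, Ccnd2 and Cdk6 rose while Ccnd1 and Cdk4 fell. Ccnd2, which encodes cyclin D2, measured 5.45, 8.99 and 6.89 CPM in the Veh libraries and 53.9, 50.0 and 52.4 CPM in the LPS libraries. Every LPS library was above every Veh library, and the rise was 7.43-fold (log2 fold change 2.89, SE 0.11, adjusted p = 9.1e-13). Cdk6, the kinase that D-type cyclins activate together with Cdk4, measured 28.4, 29.0 and 28.9 CPM in Veh and 85.2, 73.5 and 96.1 CPM in LPS, a 2.95-fold rise (log2 1.56, SE 0.08, adjusted p = 4.3e-11). Ccnd1, which encodes cyclin D1, measured 53.4, 66.8 and 63.2 CPM in Veh and 38.5, 41.1 and 43.8 CPM in LPS. The 3 LPS libraries were the lowest of the 6, and the log2 fold change was -0.57 (SE 0.08, adjusted p = 8.1e-06). Cdk4 fell from 101 ± 0.880 CPM (SD, n = 3) to 86.6 ± 6.71 CPM (log2 -0.21, adjusted p = 0.0029). Ccnd3, measured on 142 unshared bases of 2118, did not pass the test (log2 0.12, 95% interval -0.37 to 0.61). The level of cyclin D1 transcript per 1000 unshared bases exceeded that of cyclin D2 in Veh, 16.2 against 1.23 CPM, and the values were 10.9 and 9.03 CPM in LPS.

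**Figure D2:**
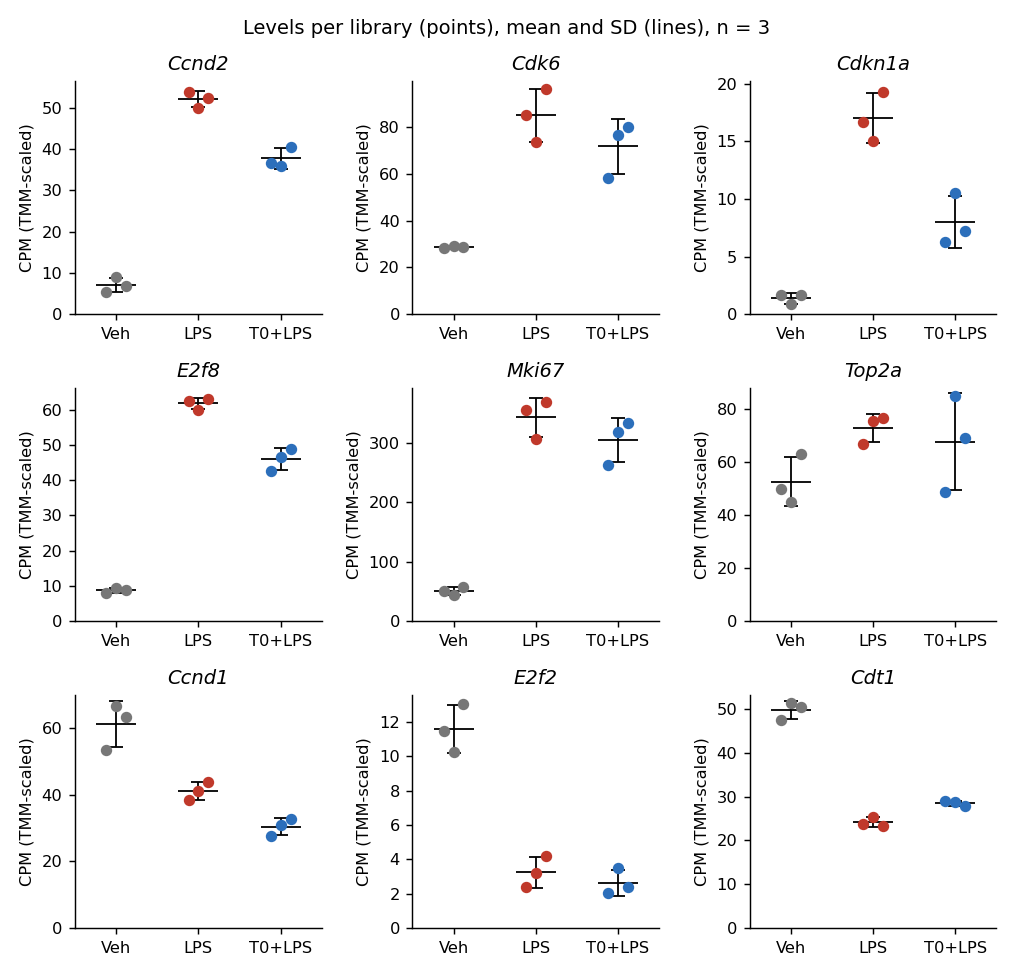
Level in CPM (y axis, from 0) of 9 members in each of the 9 libraries, with points for libraries and lines for the mean and SD of 3 libraries. Ccnd2, Cdk6, Cdkn1a, E2f8 and Mki67 are low in all Veh libraries and high in all LPS libraries, Ccnd1, E2f2 and Cdt1 show the opposite order, and Ccnd1, Ccnd2, Cdkn1a and E2f8 are lower in every T0+LPS library than in any LPS library.

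All 4 CDK inhibitors were called, Cdkn1a higher and the other 3 lower, in a comparison where 64.1% of all genes were called. Cdkn1a, the p53 target that encodes the inhibitor p21, measured 1.66, 0.859 and 1.68 CPM in Veh and 16.6, 15.1 and 19.3 CPM in LPS, and the groups did not overlap. The rise was 11.9-fold (95% interval of the log2 value 3.19 to 3.94, adjusted p = 2.7e-11), the largest of any tested member. Cdkn1a has alternative first exons on chromosome 17 (chr17:29090986-29100722, plus strand), and was counted on 206 unshared bases. The upstream row, with 116 unshared bases, held 13, 6 and 4 reads in Veh and 13, 8 and 12 in LPS. The downstream row, with 90 unshared bases, held 18, 7 and 25 reads in Veh and 197, 199 and 238 in LPS, so nearly all of the rise came from those 90 bases. The same 90 bases lie in an exon of an unclassified transcript on the opposite strand, AC167363.2 in the GENCODE annotation, and whether the counting used strand was not given. Cdkn1b, which encodes p27, fell from 70.0 ± 4.33 CPM (SD, n = 3) to 56.8 ± 3.40 CPM (log2 -0.30, adjusted p = 0.00039). Cdkn2c and Cdkn2d, inhibitors specific to CDK4 and CDK6, fell as well, with log2 fold changes of -0.45 and -0.49.

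Among the E2F factors and RB, the 2 atypical repressors moved apart. E2f8 measured 8.07, 9.39 and 8.75 CPM in Veh and 62.5, 60.1 and 63.0 CPM in LPS, a 7.12-fold rise with no overlap (log2 2.83, SE 0.07, adjusted p = 4.4e-15). E2f7, its partner in repressing E2F targets, measured 3.10, 2.51 and 3.42 CPM in Veh and 1.27, 1.02 and 1.78 CPM in LPS, and so was 2.23-fold lower (SE 0.24 on the log2 scale, adjusted p = 0.0005). The E2f7 values rest on 281 reads over the 9 libraries, against 4806 for E2f8. E2f2, an activator of replication genes, measured 11.5, 10.2 and 13.03 CPM in Veh and 2.38, 3.20 and 4.17 CPM in LPS, 3.56-fold lower, and had the largest fall among the tested members. E2f1 and Rb1 did not pass the test (log2 -0.28, 95% interval -0.62 to 0.06, and log2 -0.05, 95% interval -0.17 to 0.07). E2f8 overlaps exons of the opposite-strand transcript Gm2788 over 500 of its 3691 bases. Of the mitotic transcription factors, Mybl2 fell from 2.19, 2.38 and 3.53 CPM in Veh to 1.74, 2.04 and 1.39 CPM in LPS (log2 -0.64, adjusted p = 0.032), and Foxm1 did not pass (log2 -0.27, adjusted p = 0.073). The Mybl2 call was lost without Veh library 3 (adjusted p = 0.19), LPS library 1 (0.073) or LPS library 3 (0.11), and by DESeq2 (0.12).

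Of the 7 tested licensing genes 4 fell and 0 rose, in a comparison where 31.2% of all genes were called lower and 32.9% higher. Of the 3 tested genes of the replication clamp and nucleotide supply 1 fell and 0 rose. In both classes 0 genes were higher at an unadjusted p under 0.05 or by DESeq2, and by DESeq2 4 licensing genes were lower and 0 of the second class. Cdt1, which loads the helicase onto origins, measured 47.5, 51.5 and 50.5 CPM in Veh and 23.8, 25.5 and 23.3 CPM in LPS, 2.05-fold lower with no overlap (log2 -1.04, SE 0.06, adjusted p = 5.2e-10). The 6 helicase subunits are known to act as a single complex, and 3 of their transcripts were called. Mcm2, Mcm6 and Mcm7 fell, with log2 fold changes of -0.51, -0.39 and -0.50. Mcm3, Mcm4 and Mcm5 did not pass the test, and their 95% intervals ran from -0.27 to 0.01, from -0.07 to 0.21 and from -0.26 to 0.05. The difference between the subunits was not tested. Ccne1, which encodes the cyclin of S phase entry, measured 6.31, 5.35 and 6.49 CPM in Veh and 4.52, 2.18 and 4.32 CPM in LPS, 1.66-fold lower (adjusted p = 0.005). Pcna measured 358 ± 7.02 CPM (SD, n = 3) in Veh and 341 ± 6.28 CPM in LPS and did not pass (log2 -0.07, 95% interval -0.15 to 0.02). The subunits of ribonucleotide reductase, which makes deoxynucleotides, gave log2 -0.19 for Rrm1 (adjusted p = 0.015, lost by DESeq2, without Veh library 3 at 0.087 or without LPS library 1 at 0.082) and -0.20 for Rrm2 (adjusted p = 0.083).

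Of the 12 tested genes of G2 and mitosis, 2 rose, 3 fell and 7 were not called. Over all genes 64.1% were called in this comparison, 32.9% higher and 31.2% lower. Mki67, whose product coats mitotic chromosomes, measured 50.5, 43.4 and 57.5 CPM in Veh and 355, 306 and 368 CPM in LPS. The LPS libraries lay far above the Veh libraries, and the rise was 6.79-fold (log2 2.76, SE 0.08, adjusted p = 4.1e-14). Mki67 had 10075 unshared bases and 28855 reads over the 9 libraries. Top2a, which encodes topoisomerase II alpha, measured 49.9, 45.0 and 62.9 CPM in Veh and 66.8, 75.5 and 76.4 CPM in LPS, a 1.39-fold rise without overlap (adjusted p = 0.00031, and 0.088 when scaled by library totals alone). Cdk1, Ccnb1, Ccnb2 and Ccna2, the mitotic kinase and its cyclins, gave log2 fold changes of -0.08, -0.08, 0.15 and -0.02, with 95% intervals that all included 0. Aurkb, the kinase of the chromosomal passenger complex, measured 8.18, 7.40 and 9.21 CPM in Veh and 4.36, 6.19 and 4.94 CPM in LPS, 1.59-fold lower (adjusted p = 0.00076). Bub1b and Plk1 fell, with log2 fold changes of -0.48 and -0.47. The Bub1b libraries overlapped between the groups, and the Plk1 call (adjusted p = 0.022) was lost without Veh library 3 (0.12), LPS library 1 (0.052) or LPS library 2 (0.058), by DESeq2 (0.1) and in a fit of all 9 libraries (0.073). Birc5, another passenger subunit, was measured by 117 reads in all and did not pass (95% interval of the log2 fold change -1.93 to -0.08, adjusted p = 0.055). Summed without Mki67 and Top2a, the genes of G2 and mitosis measured between 71.2 and 91.0 CPM in Veh and between 64.8 and 73.0 CPM in LPS, so the groups overlapped.

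**Figure D3:**
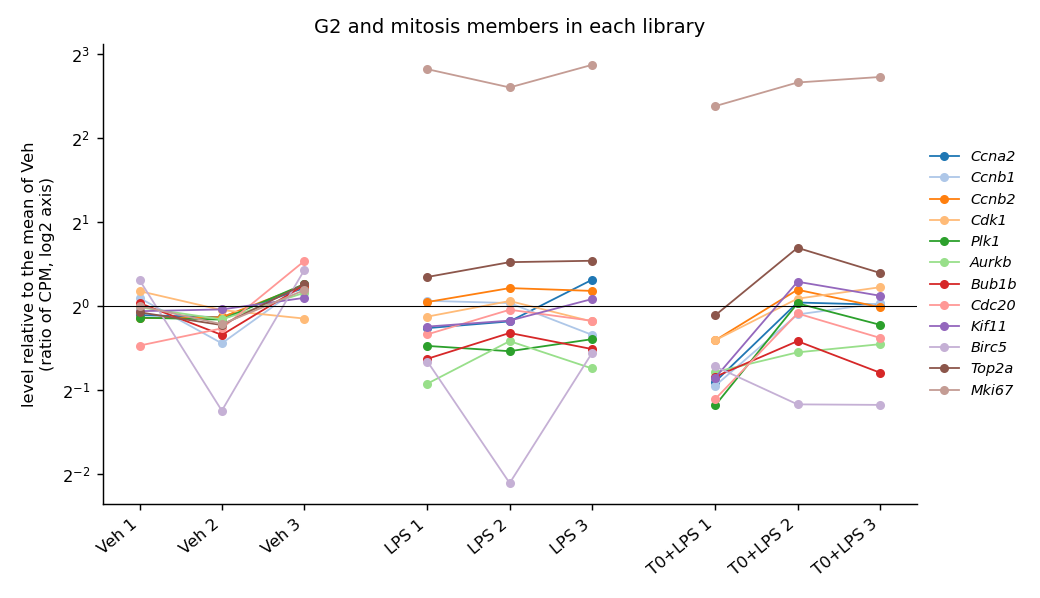
Level of the 12 tested genes of G2 and mitosis in each of the 9 libraries, as a ratio to the mean of the Veh libraries on a log2 axis (y), with points for libraries and lines that join the libraries of a group only to guide the eye. Mki67 lies apart from the other genes in LPS and T0+LPS, and 11 of the 12 genes are at their lowest of the T0+LPS group in T0+LPS library 1.

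Other genes of the same pathways were taken from lists of known members. Of 30 other S phase genes tested, 3 rose and 16 fell after LPS (2 and 12 by DESeq2), with a median log2 fold change of -0.36. Of all genes 32.9% were called higher and 31.2% lower in this comparison. The licensing inhibitor Gmnn (log2 -1.10), the replisome subunit Gins3 (-1.35) and the origin recognition subunit Orc5 (-1.02) fell most, and Orc4 (0.80), Rpa2 (0.54) and Pola2 (0.54) rose. Of 37 other mitotic genes tested, 4 rose and 15 fell (4 and 10 by DESeq2), with a median of -0.18. Cks2, a CDK accessory subunit, rose from 4.38 ± 0.177 CPM (SD, n = 3) to 9.95 ± 0.862 CPM, and Mad2l1, a spindle checkpoint gene, from 11.3 ± 1.18 CPM to 22.8 ± 1.78 CPM. Ccnf (log2 -1.02), Kif20b (-0.97) and Bora (-0.96) fell most among them. Of 5 other RB, E2F and DREAM complex genes tested, E2f4 (log2 0.49), E2f5 (0.53) and Rbbp4 (0.18) rose and Rbl1 (-0.56) and Lin52 (-0.48) fell. With T0, 0 genes of these 3 lists were called against LPS by edgeR or DESeq2, where edgeR called 3.18% of all genes. At an unadjusted p under 0.05 Rfc1, Tipin and Cks1b were higher and Mad2l1 was lower.

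Comparing T0+LPS with LPS asks which members respond to prior LXR activation. Against LPS, 4 members were lower with T0 and 0 were higher, by edgeR and by DESeq2. At an unadjusted p under 0.05, 7 were lower and 1 (Cdt1) was higher. The 4 were Cdkn1a, Ccnd2, Ccnd1 and E2f8, of which 3 had risen after LPS and Ccnd1 had fallen. Over the 9348 genes tested, 3.18% were called, 1.83% lower and 1.35% higher, against 4 of 39 members (10.3%). At over 1.5-fold, 1 member (Cdkn1a) was lower and 0 were higher, against 0.342% and 0.428% of all genes. The median log2 fold change of the members was -0.05, against 0.0028 for all genes. In 8 members the libraries of the 2 groups did not overlap, against 19.1% of all genes. Of these, 7 were lower and 1 higher with T0, against 9.62% and 9.51%. Each of the 4 calls was kept in all 14 alternative fits.

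Cdkn1a measured 16.6, 15.1 and 19.3 CPM in LPS and 6.24, 10.5 and 7.21 CPM in T0+LPS. All T0+LPS libraries were below all LPS libraries and above all Veh libraries, and the log2 fold change with T0 was -1.08 (SE 0.16, adjusted p = 0.001). On the downstream Cdkn1a row the T0+LPS libraries held 76, 148 and 96 reads, against 197, 199 and 238 in LPS, and the upstream row held at most 13 reads in any library. Ccnd2 measured 53.9, 50.0 and 52.4 CPM in LPS and 36.8, 35.9 and 40.6 CPM in T0+LPS (log2 -0.46, SE 0.07, adjusted p = 0.00086). E2f8 measured 62.5, 60.1 and 63.0 CPM in LPS and 42.6, 46.5 and 48.9 CPM in T0+LPS (log2 -0.43, SE 0.06, adjusted p = 0.0011). The T0+LPS values of these 2 genes were above every Veh and below every LPS library. Ccnd1 measured 38.5, 41.1 and 43.8 CPM in LPS and 27.6, 30.8 and 32.7 CPM in T0+LPS (log2 -0.44, SE 0.08, adjusted p = 0.0043). Its T0+LPS libraries were below the libraries of both other groups. Of the mean difference between LPS and Veh, 42.2% was left with T0 for Cdkn1a, 68.1% for Ccnd2 and 70.1% for E2f8. These genes were picked as called lower than the same LPS libraries, so a share below the whole followed from that choice. Ccnd1 is overlapped over 1100 of its 3796 bases by LTO1 and Ccnd2 over 372 of its 5771 bases by Gm43126, both on the opposite strand.

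**Figure D4:**
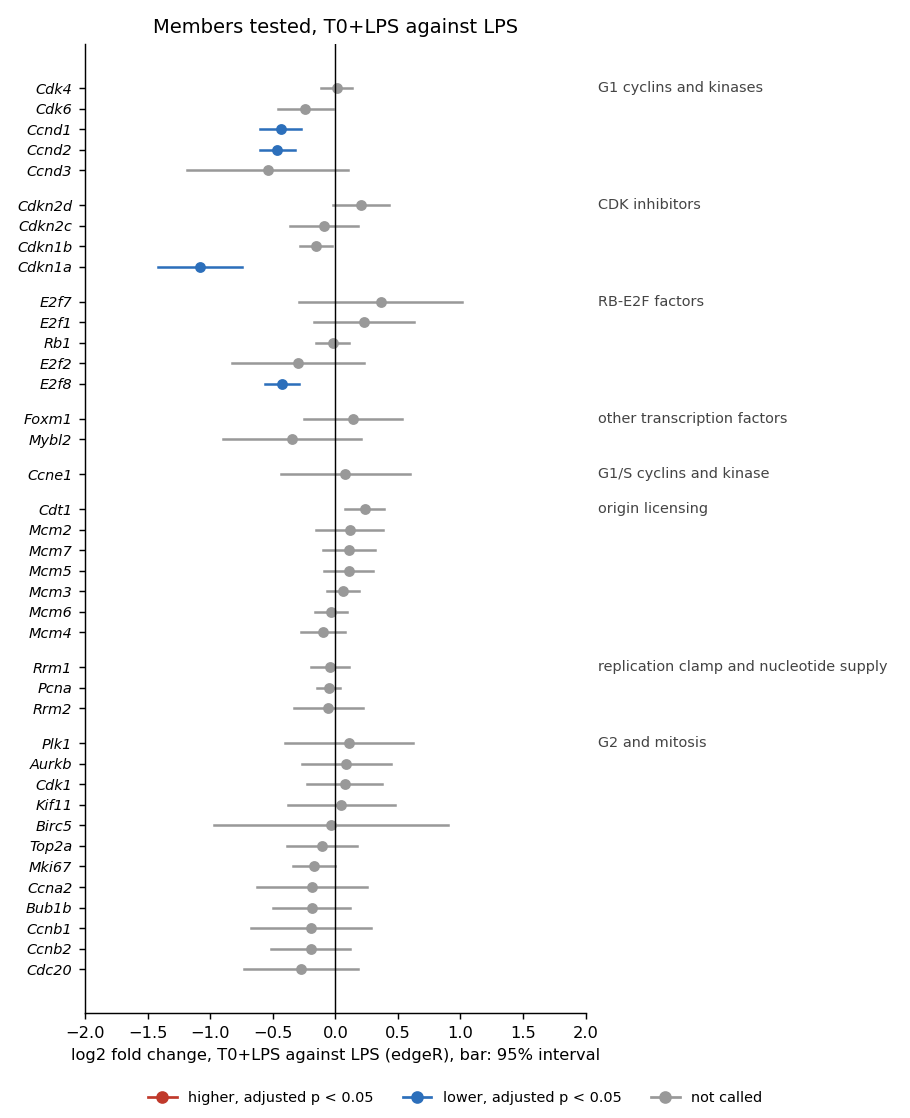
Difference between T0+LPS and LPS as a log2 fold change (x axis) for the 39 tested members, grouped by role, with points for the edgeR estimate and bars for its 95% interval. Blue points are the 4 members called lower (Cdkn1a at -1.08, and Ccnd2, Ccnd1 and E2f8 between -0.46 and -0.43), gray points the 35 not called, and no member was called higher.

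Cdk6 and Mki67, which had also risen by over 1.5-fold after LPS, did not pass the test with T0. Cdk6 measured 85.2, 73.5 and 96.1 CPM in LPS and 58.4, 76.6 and 80.1 CPM in T0+LPS, and the groups overlapped (log2 -0.24, 95% interval -0.46 to -0.02, adjusted p = 0.31). Mki67 measured 355, 306 and 368 CPM in LPS and 262, 318 and 333 CPM in T0+LPS, also with overlap (log2 -0.17, 95% interval -0.34 to -0.00039, adjusted p = 0.36). Both were called lower when no filter on low counts was used (log2 -0.24 and -0.17, adjusted p = 0.0082 and 0.041), and in no other alternative. Cdt1 was the member whose T0+LPS libraries (28.9, 28.8 and 27.8 CPM) all lay above the LPS libraries (23.8, 25.5 and 23.3 CPM), with log2 0.24 and an adjusted p of 0.11. The 7 tested licensing genes had log2 fold changes between -0.10 and 0.24 with T0, and Pcna, Rrm1 and Rrm2 between -0.05 and -0.04.

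The 12 genes of G2 and mitosis had log2 fold changes between -0.28 and 0.11 with T0. Of them 0 were called by edgeR or DESeq2, where edgeR called 3.18% of all genes. At an unadjusted p under 0.05, 1 of the 12 (Mki67) was lower. Library 1 of the T0+LPS group stood apart for these genes. It held the lowest value of its group for 32 of the 39 tested members, including 11 of the 12 genes of G2 and mitosis and 6 of the 7 licensing genes. Veh library 2 was lowest in its group for 20 members (8 of G2 and mitosis) and LPS library 1 for 18 (7 of G2 and mitosis). The share over all genes was not counted, so whether this is particular to the members was not tested. Summed without Mki67 and Top2a, the genes of G2 and mitosis measured 47.6 CPM in T0+LPS library 1 and 78.6 and 73.8 CPM in the other libraries of the group. Kif11, a spindle motor, measured 7.23, 15.9 and 14.2 CPM, and Plk1, a mitotic kinase, 2.28, 5.29 and 4.44 CPM. Without that library, the same count of 4 members was lower with T0 and 0 were higher. The summed macrophage markers were 33228 CPM in that library, 31639 and 32197 CPM in the other 2, and the summed stem and progenitor markers were 0.381, 0.139 and 0.347 CPM. These last sums rest on a few reads, as 3 reads correspond to between 0.182 and 0.226 CPM, and 0 of those 9 markers passed the filter. The part of cell composition in this spread was not tested.

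Comparing T0+LPS with Veh gives the combined effect of both agents. In this comparison 6 members were higher and 18 lower among 39 tested, against 65.3% of 9636 genes called, 32.4% higher and 32.9% lower. In 22 members the libraries did not overlap, 5 higher and 17 lower, against 69.4% of all genes, 35.6% higher and 33.8% lower. The 6 were those that rose after LPS alone. Cdkn1a was 5.52-fold, Ccnd2 5.30-fold, E2f8 5.21-fold, Mki67 5.93-fold and Cdk6 2.46-fold higher than in Veh, beside 11.9, 7.43, 7.12, 6.79 and 2.95-fold after LPS alone. These 2 comparisons share the Veh libraries. Ccnd1 was 2.03-fold lower than in Veh (log2 -1.02, adjusted p = 1.4e-08) and E2f2 was 4.45-fold lower (log2 -2.15). Pcna was called lower here, at 358 ± 7.02 CPM (SD, n = 3) in Veh and 328 ± 5.01 CPM in T0+LPS (log2 -0.15, adjusted p = 0.0013), as was Birc5 (log2 -1.06, adjusted p = 0.031), while Plk1 was not. The Top2a call rested on an adjusted p of 0.05 with overlapping libraries (49.9, 45.0 and 62.9 CPM in Veh, 48.7, 85.0 and 69.1 CPM in T0+LPS). It was lost without Veh library 1 (adjusted p = 0.11), Veh library 2 (0.19), T0+LPS library 2 (0.35) or T0+LPS library 3 (0.11). It was also lost by DESeq2 (0.28), with library totals alone (log2 0.08, adjusted p = 0.64), with a stricter filter (0.053) and with rows not summed (0.052), so that 8 of 14 alternatives did not make the call.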

How the data were processed

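Polyadenylated RNA of 9 BMDM cultures was sequenced. The authors trimmed reads with cutadapt, used HISAT2 for alignment to the transcriptome of mm10 and featureCounts for counting on RefSeq annotation, and the deposited values are whole read counts without normalization, 1 row per transcript. Tables holding only the authors' own comparisons (base means, p-values, adjusted p-values, RPKM ratios and gene names) were not used.

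Counts were summed per gene symbol (32850 rows, 24061 symbols). Each pair of groups was fitted on its 6 libraries with edgeR 4.0.16 (R 4.3.3): filterByExpr, TMM factors, quasi-likelihood test and Benjamini-Hochberg adjustment over all symbols tested. Every adjusted p in the text comes from this test unless another is named, and a gene was called at an adjusted p under 0.05. Intervals are 95% intervals of the fitted log2 fold change. The fit was tested on simulated counts in which few symbols changed, as many up as down. That setting did not test the scaling between groups that differ in library composition. Libraries of a group differed by more than sampling noise (chi-square per degree of freedom 2.63 to 6.67). Floors cover counting error only. An exact permutation test of 3 against 3 cannot give p below 0.1, so none was used. Unshared bases were derived from the exon positions of the rows, and strand overlaps from GENCODE exons of the same build.

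The members and gene lists were chosen with earlier results of these data known. All 46 members are accounted for. Values per library are given for members called over 1.5-fold in LPS against Veh and for those called in T0+LPS against LPS. From each other list, up to 3 called genes with the largest rise and 3 with the largest fall are named. Other members are named for the extremes of their role class or for a library that decides their value. Alternatives were DESeq2 1.42.0, 2 other scalings, 2 other filters, a fit of all 9 libraries, unsummed rows, the replicate number as a block and each library left out in turn.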

Additional observations from a re-analysis of the deposited data

How the results depend on the processing

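With library totals in place of TMM factors, 28 members were called lower in LPS against Veh (17 with TMM) and 29 in T0+LPS against Veh (18 with TMM). Under it the median log2 fold change over all genes was -0.28 and -0.29, and the value of Mcm4 was -0.21 in LPS against Veh (0.07 with TMM). The share of lower calls over all genes was 76.2% and 76.9% under it, against 48.6% and 50.4% with TMM. The log2 fold change of no called member changed sign in the alternatives run. In T0+LPS against LPS all 56 values of the 4 called members kept their call. In LPS against Veh 309 of 322 did, with losses for Mybl2, Plk1, Rrm1 and Top2a. In T0+LPS against Veh 322 kept it and 13 did not, all for Birc5 and Top2a.

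Leaving out each library in turn gave 14 to 19 members lower and 6 higher in LPS against Veh, 4 lower and 0 higher in T0+LPS against LPS, and 17 to 20 lower and 5 to 6 higher in T0+LPS against Veh. Birc5 lost its call in T0+LPS against Veh without Veh library 1 (adjusted p = 0.11), Veh library 3 (0.14), T0+LPS library 2 (0.093) or T0+LPS library 3 (0.098), and by DESeq2 (0.11). DESeq2 called 6 higher and 14 lower, 0 and 4, and 5 and 17 in the same 3 comparisons. Without a filter on low counts the lower calls were 20, 6 and 21.

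Libraries of the same replicate number did not deviate together (r between -0.024 and 0.063), so they were not treated as pairs. With the replicate number as a block, 6 members were higher and 18 lower in LPS against Veh, 0 and 4 in T0+LPS against LPS, and 6 and 20 in T0+LPS against Veh. Of the 7 members not tested, Myc had 0 unshared bases and Bub1 3, which limits what could be counted. Cdc6 had 262 and Ccne2 194, while Cdkn1a passed the filter on 206 and Ccnd3 on 142. The part of few bases in the low counts of the others was not tested.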

Other observations

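Genes around the p53 checkpoint and the MYC network were listed by their known roles. Of 26 tested checkpoint and p53 pathway genes, 10 rose and 8 fell after LPS, in a comparison where 64.1% of all genes were called, 32.9% higher and 31.2% lower. Gadd45b, a stress-response gene, measured 61.8, 58.9 and 62.5 CPM in Veh and 417, 398 and 398 CPM in LPS, while its relative Gadd45g measured 31.4, 33.9 and 35.0 CPM in Veh and 4.28, 4.22 and 5.10 CPM in LPS. The groups did not overlap for either gene. Cdkn2b, a CDK inhibitor, rose from 2.17 ± 0.724 CPM (SD, n = 3) to 10.2 ± 1.42 CPM, and Rgcc from 3.29 ± 0.365 CPM to 11.2 ± 1.05 CPM. Sesn1 (log2 -1.82) and Wee1, the kinase that restrains CDK1 (log2 -1.78), fell. With T0, Gadd45b was lower than in LPS, at 315, 333 and 344 CPM (log2 -0.29, adjusted p = 0.0022 by edgeR), and so was Ccng2, which measured 140, 138 and 132 CPM in LPS and 102, 113 and 115 CPM in T0+LPS (log2 -0.32, adjusted p = 0.0036). Of the 27 genes of the list tested with T0, these 2 were called and 0 were higher, by edgeR and DESeq2. Over all genes edgeR called 3.18% in this comparison, 1.83% lower and 1.35% higher. At an unadjusted p under 0.05 there were 4 genes of the list lower and 0 higher.

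In the MYC network, 1 of 9 tested genes rose after LPS and 6 fell (1 and 4 by DESeq2). Mycl, a MYC family factor, was at 0.0535, 0 and 0 CPM in Veh, 10.7, 11.5 and 13.7 CPM in LPS and 10.4, 9.26 and 11.1 CPM in T0+LPS, and no fold is given because its Veh libraries were at the floor. Mnt, a repressor that competes with MYC for MAX, fell from 126 ± 1.47 CPM (SD, n = 3) to 31.9 ± 0.789 CPM. Mxd3 (log2 -1.07) and Mxd4 (log2 -1.03), repressors of the same network, also fell. Of 19 other cyclins and CDKs tested, 6 rose, led by Cdk17 (log2 0.84), Ccnl1 (0.80) and Ccnt1 (0.73). Ccnh and Cdk9 fell by 0.29 and 0.20 on the log2 scale. Beside the counts of both lists, 32.9% of all genes were called higher after LPS and 31.2% lower. With T0, 0 genes of either list were called against LPS by edgeR or DESeq2, where edgeR called 3.18% of all genes. Mnt alone was higher at an unadjusted p under 0.05.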
